A study of Mus musculus with 13 samples.

Results

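The genes described here carry sulfur from homocysteine through cysteine to taurine and sulfate in mouse liver. They are 7 genes of 19938 named on the array, Cbs, Cth, Cdo1, Csad, Ado, Suox and the taurine carrier gene Slc6a6, picked by symbol from the pathway, with the probe set of the highest mean over all arrays kept for each gene. Each of the 7 had 1 probe set, so no choice between probe sets was made. Liver RNA came from male wild-type C57BL/6N mice. The 6 STZ mice were injected intraperitoneally with streptozotocin (STZ), an alkylating glucose analogue toxic to pancreatic beta cells, at 65 mg/kg on 5 consecutive days. The 7 control mice were mock-injected with citrate buffer, although the series text describes the controls by a standard diet. All mice were 10 to 16 weeks old at injection and were killed 9 to 11 weeks later, at 5 to 6 months of age. STZ acts as a chemical model of insulin-deficient diabetes and reaches the liver too, so effects of the lost insulin and of the drug itself cannot be told apart here.

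In the transsulfuration pathway, cystathionine beta-synthase (Cbs) joins homocysteine, the product left when methionine gives up its methyl group, to serine, and cystathionine gamma-lyase (Cth) splits the product to release cysteine. Cysteine dioxygenase (Cdo1) oxidises cysteine to cysteine sulfinate, which cysteine sulfinate decarboxylase (Csad) turns into hypotaurine, the precursor of taurine. Liver uses taurine to conjugate bile acids and, in the mouse, conjugates them almost entirely with taurine.

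The 13 arrays gave log2 intensities of 35556 probe sets with array medians of 6.22 to 6.31. All 10 hepatocyte markers examined lay between 11.58 and 13.70 in every array, and the mean levels of pancreas and fat markers were 4.16 to 6.82. Across the named genes, STZ replicate 5 had a mean Pearson correlation of 0.990 with the other STZ arrays and of 0.993 with the controls, while for the other 5 STZ arrays the mean correlation with their own group was the higher one. These correlations are across genes, which are not independent replicates. In that array Hsd3b5, a male-specific steroid dehydrogenase gene, was 10.31, against 4.71 to 5.03 in the other STZ arrays and 11.14 to 12.13 in controls. Differences are therefore also given without this array. The number of arrays limits the precision. Levels of different genes are not compared, because probe sets differ in brightness.

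The differences of the 7 genes between STZ and control livers did not all have the same sign. Csad was 5.66-fold lower, Cth was higher by a factor of 1.95 and Slc6a6 by a factor of 1.37, and the other 4 genes differed by at most 0.24 on the log2 scale. The members were chosen with this comparison known, so their own differences stand as a description, without a p value. In limma across all 19938 genes, 3 of the 7 passed an adjusted p under 0.05, against 9.12% of all genes. Of these 3, 1 was lower (4.04% of all genes) and 2 were higher (5.09%). The same 3 were the members whose STZ and control values did not overlap, which held for 3.86% of all genes. All 7 were brighter than the median gene. When only such genes were tested, 4 of the 7 passed, against 18.6% of all genes in that fit. The median difference of the 7 was 0.22, beside -0.01 for all genes. Nothing is read from these counts. In bulk tissue, fewer cells of a type and less RNA per cell cannot be told apart.

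**Figure D1:**
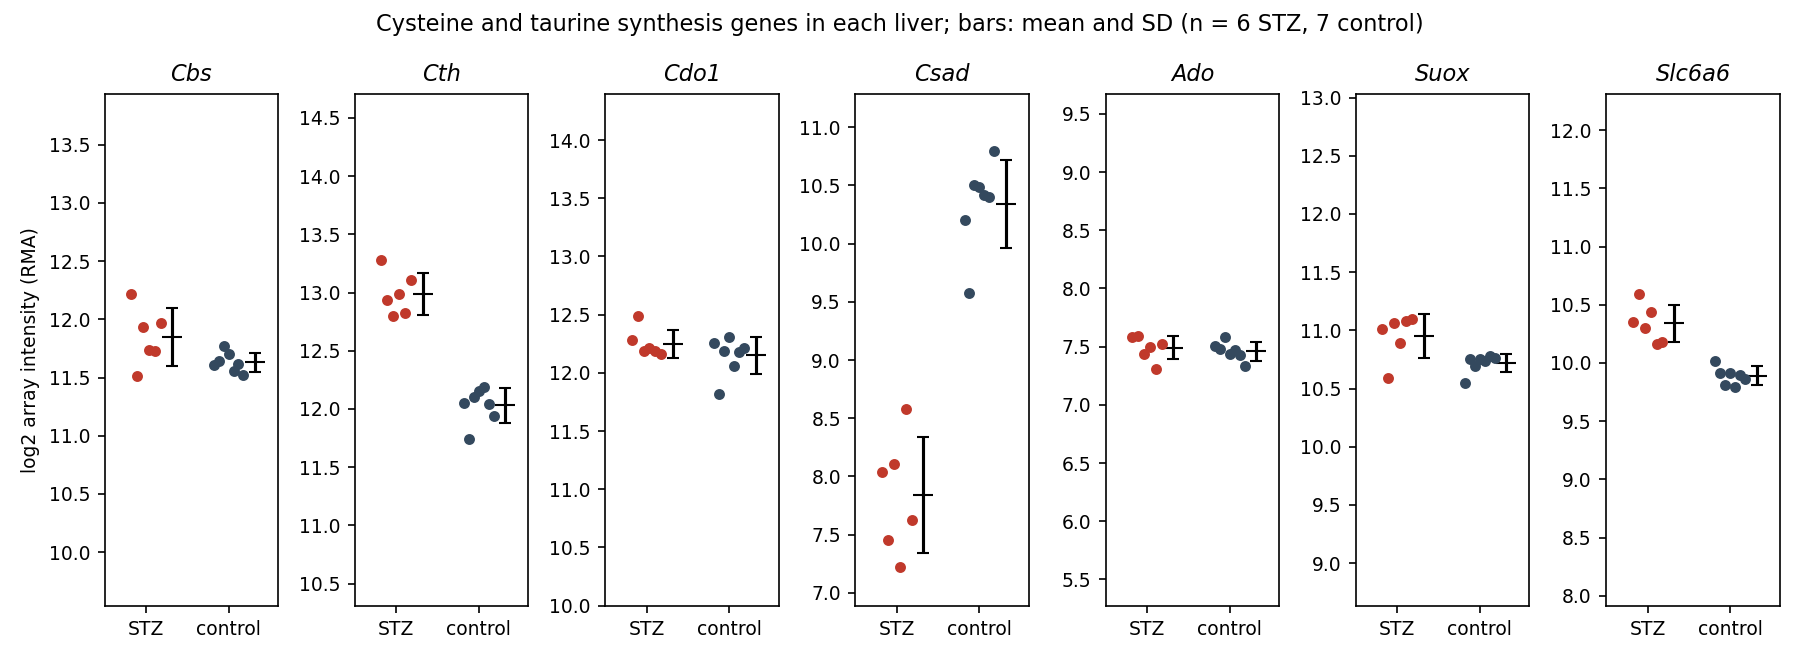
Log2 array intensity (vertical axes, each spanning the same 4.4 log2 units) of the 7 genes in each STZ and control liver, with STZ on the left of each panel. Points are arrays, and bars give the mean and SD (n = 6 STZ, 7 control). The points of Csad, Cth and Slc6a6 do not overlap between groups.

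Cbs carries out the committing step of transsulfuration. Its log2 values in STZ livers were 11.51 at the lowest, 11.84 at the median and 12.22 at the highest, against 11.52, 11.62 and 11.77 in control livers. The groups overlapped: 3 of 6 STZ arrays lay above all controls and STZ replicate 2 just below all of them. The difference was 0.22 ± 0.09 (STZ minus control on the log2 scale, ± SE of the limma fit, as for all differences below). The spread was wider in STZ livers, with an SD of 0.25 (n = 6), against 0.08 in controls (n = 7). The difference was 0.15 without STZ replicate 1, the highest array, and 0.29 without STZ replicate 2, the lowest.

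Cth, the enzyme that frees cysteine, was the member most clearly higher. Its values were 12.80, 12.97 and 13.28 (lowest, median, highest) in STZ livers, against 11.74, 12.05 and 12.19 in control livers. Every STZ array lay above every control, with a gap of 0.61 between the groups. The means were 12.99 ± 0.18 (SD, n = 6) in STZ livers and 12.03 ± 0.15 (SD, n = 7) in controls, a difference of 0.96 ± 0.08. By this difference Cth held rank 73 from the highest among the 19938 genes. STZ replicate 1 was the highest, at 1.25 above the control mean, and STZ replicate 3 the least raised, at 0.77 above it. Without STZ replicate 5 the difference was 0.99.

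Cdo1 sets how much cysteine is oxidised, and in liver it is known to be controlled largely through breakdown of its protein, which an array does not see. Its values were 12.16, 12.20 and 12.49 in STZ livers, against 11.82, 12.19 and 12.31 in control livers. The groups overlapped, and 1 of 6 STZ arrays, replicate 2, lay above all controls. The difference was 0.11 ± 0.08, and 0.06 without STZ replicate 2.

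Csad, the decarboxylase that commits cysteine sulfinate to taurine, was the gene of the pathway that stood farthest from the controls. Its values were 7.22, 7.84 and 8.58 (lowest, median, highest) in STZ livers, against 9.58, 10.42 and 10.80 in control livers. Every STZ array lay below every control, and 1.00 log2 unit separated the highest STZ value from the lowest control value. The means were 7.84 ± 0.50 (SD, n = 6) in STZ livers and 10.34 ± 0.38 (SD, n = 7) in controls, and the difference was -2.50 ± 0.20. By this difference Csad held rank 10 from the lowest among the 19938 genes.

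The STZ arrays differed among themselves in Csad. Relative to the control mean, STZ replicate 4 was at -3.12 and STZ replicate 2 at -2.89, while STZ replicate 5, the array that resembled the controls across genes, was nearest to them at -1.76. Without STZ replicate 5 the difference of Csad was -2.65. Control replicate 2 was the lowest control for Csad (-0.76), for Cth (-0.29) and for Cdo1 (-0.33) relative to the control mean. Csad values in STZ livers stayed above the lower quartile of all probe sets, which was 4.87 to 4.99 in the 13 arrays. That quartile is not a measure of background. The highest value among the pancreas and fat markers was 6.96, against 7.22 for the lowest Csad value. Without detection calls, whether dim signal compressed the Csad difference cannot be told.

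The annotated starts of Csad are shown because Csad carried the largest difference, and Cbs, which differed little, is shown beside it. The 250 bases before each start come from RefSeq on GRCm38.p6, written 5′ to 3′ on the minus strand, on which all 3 starts lie. They are chr15:102205053-102205302 and chr15:102189044-102189293 for the Csad starts and chr17:31637206-31637455 for the Cbs start. Capitals mark a GC box (GGGCGG) or a CCAAT box (CCAAT) on either strand.
Csad, upstream start: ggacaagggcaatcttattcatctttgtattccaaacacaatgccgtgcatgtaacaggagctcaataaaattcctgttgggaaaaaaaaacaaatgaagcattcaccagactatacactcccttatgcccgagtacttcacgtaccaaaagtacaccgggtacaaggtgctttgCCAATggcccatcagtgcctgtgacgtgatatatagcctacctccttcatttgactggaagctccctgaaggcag
Csad, downstream start: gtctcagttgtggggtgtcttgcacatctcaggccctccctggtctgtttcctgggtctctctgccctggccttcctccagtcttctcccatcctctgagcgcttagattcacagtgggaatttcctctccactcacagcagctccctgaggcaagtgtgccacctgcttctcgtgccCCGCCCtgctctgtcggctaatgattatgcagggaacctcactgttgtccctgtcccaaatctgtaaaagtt
Cbs: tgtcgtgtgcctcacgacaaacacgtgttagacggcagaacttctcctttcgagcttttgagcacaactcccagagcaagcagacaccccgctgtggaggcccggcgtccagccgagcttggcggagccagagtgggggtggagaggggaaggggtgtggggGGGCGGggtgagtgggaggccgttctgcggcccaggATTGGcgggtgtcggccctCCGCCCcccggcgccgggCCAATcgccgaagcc
The array does not tell the Csad starts apart. The upstream Csad window held 1 CCAAT box and no GC box, the downstream window 1 GC box and no CCAAT box, and the Cbs window 2 of each. Of the 32851 windows of the same length in the table, 32.7% held a GC box and 33.8% a CCAAT box. The Csad windows had a G and C content of 44.8% and 55.6%, against 68.0% for Cbs, 74.4% for Suox and 75.2% for Ado. Windows were found for 4 of the 7 genes, 5 windows in all.

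Motifs named for factors that bear on this pathway were looked for in the same 5 windows on both strands. They were a pair of nuclear receptor half-sites (AGGTCA) as an inverted repeat with 1 base between them, the element of the bile acid receptor FXR, the same half-sites as a direct repeat with 1 base between them, bound by PPARalpha and HNF4alpha, the half-site alone, which both contain, the antioxidant response core of NRF2 (TGACNNNGC) and the amino acid response core of ATF4 (TGATGNAAT). The TATA box (TATAAA) was looked for as well. None of these letters was present in the 5 windows. Of all windows of that length, 0.006%, 0.033%, 14.0%, 10.2%, 0.816% and 12.4% held them, in the order given. The absence of these exact letters in 250 bases says nothing about binding of the factors.

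Ado, cysteamine dioxygenase, makes hypotaurine from cysteamine, a breakdown product of coenzyme A, and so offers a route to taurine that bypasses Csad. Its values were 7.31, 7.51 and 7.59 in STZ livers, against 7.33, 7.47 and 7.58 in control livers. The groups overlapped almost fully, and the difference was 0.03 ± 0.06. Without STZ replicate 5 the differences were 0.06 for Ado, 0.25 for Cbs and 0.12 for Cdo1.

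Suox, the mitochondrial sulfite oxidase, completes the other branch, in which cysteine sulfinate is broken down to sulfite and then sulfate. Its values were 10.59, 11.04 and 11.10 in STZ livers, against 10.55, 10.75 and 10.78 in control livers. In 5 of 6 STZ arrays Suox lay above all controls, and STZ replicate 2, at 10.59, lay among them. The difference was 0.24 ± 0.08, 0.21 without STZ replicate 5 and 0.31 without STZ replicate 2. Suox was not past the threshold in the main fit, but was without STZ replicate 2 and in 4 of 9 other alternatives.

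Slc6a6 encodes the sodium-dependent taurine carrier TauT of the plasma membrane. Its values were 10.16, 10.33 and 10.59 in STZ livers, against 9.79, 9.90 and 10.02 in control livers. Every STZ array lay above every control, by at least 0.14. The means were 10.34 ± 0.16 (SD, n = 6) and 9.89 ± 0.08 (SD, n = 7), with a difference of 0.45 ± 0.07, and 0.49 without STZ replicate 5. The gene is used by many cell types, so markers of other liver cells are given beside it. Of 6 Kupffer cell markers 3 were higher, and their summed linear intensity was 3797 to 6272 in STZ arrays, against 3448 to 4534 in controls. Of 6 stellate cell markers 1 was higher, the matrix gene Dcn (0.35 ± 0.06), and 1 lower, the retinol-esterifying Lrat (-0.47 ± 0.08), with sums of 5171 to 6381, against 4715 to 4943. Such sums are weighted towards the brightest probe set of a list, here Dcn (means of 11.99 in STZ livers and 11.64 in controls). The other 4 stellate markers did not pass, and the list median difference was 0.05. The brightest were Vsig4 in the Kupffer list and Clec4g in the endothelial list below. Of 6 sinusoidal endothelial markers 1 was higher, the hyaluronan receptor gene Lyve1 (0.50 ± 0.11, limma adjusted p = 0.00967), with sums of 4384 to 4833, against 4277 to 4646. Of 5 measured lymphocyte markers 1 was lower, the B cell receptor gene Cd79b (-0.40 ± 0.10, limma adjusted p = 0.02), with sums of 286 to 440, against 366 to 409. None of 5 measured bile duct markers passed (1 at an unadjusted p under 0.05, 0 in the exact rank-sum test), with sums of 367 to 455, against 377 to 417. The lowest single value was 5.86 in the Kupffer list, 6.44 in the stellate list, 7.28 in the endothelial list, 4.20 in the lymphocyte list and 4.04 in the bile duct list. In the exact rank-sum test, 0 markers passed in the Kupffer, endothelial and lymphocyte lists and 2 in the stellate list. Among all genes, 5.09% were higher and 4.04% lower in limma. The part of these cell types in the Slc6a6 difference was not tested.

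**Figure D2:**
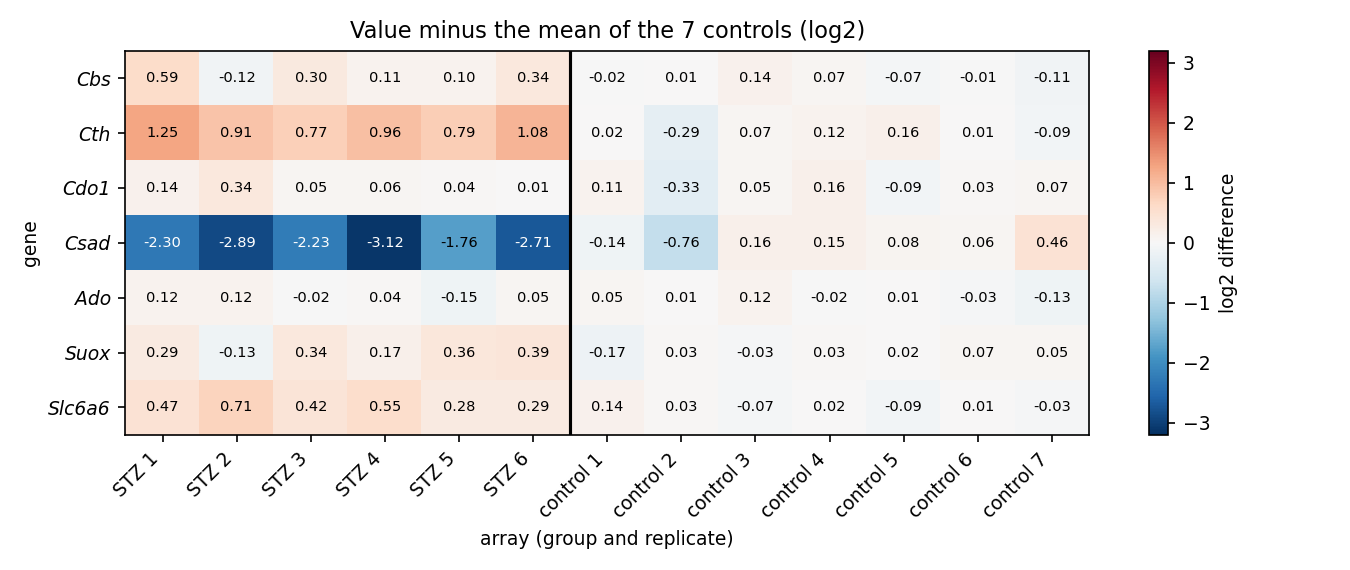
Value of each gene (rows, in pathway order) in each array (columns, STZ arrays on the left of the line) minus the mean of the 7 controls, in log2 units, printed in each cell and shown by colour. Csad is negative in all 6 STZ arrays, from -3.12 to -1.76, while Cth (0.77 to 1.25) and Slc6a6 (0.28 to 0.71) are positive in all 6.

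Whether the genes varied together from mouse to mouse was asked within each group, which does not use the STZ and control difference. Of the 42 pairs (21 in each group), 0 passed an exact 2-sided permutation test of Pearson's r after Benjamini-Hochberg adjustment over all 42, and 0 by Spearman's rho. At an unadjusted p under 0.05 there were 3 pairs by Pearson and 4 by Spearman. The strongest was Suox with Slc6a6 in STZ livers (n = 6), with r = -0.93 (exact permutation p = 0.00278, adjusted p = 0.117) and rho = -0.94 (exact permutation p = 0.0167, adjusted p = 0.35). Without the 2 arrays farthest from the median of Suox, r was -0.87 (exact permutation p = 0.125). The other 2 pairs by Pearson were also in STZ livers. Cdo1 with Suox had r = -0.92 (exact permutation p = 0.0347, adjusted p = 0.486) and rho = -0.94 (exact permutation p = 0.0167), and r was -0.81 without the 2 arrays farthest from the median of Cdo1. Cdo1 with Slc6a6 had r = 0.85 (exact permutation p = 0.0236, adjusted p = 0.486) and rho = 0.89 (exact permutation p = 0.0333), and r was 0.76 without those arrays. STZ replicate 2, the lowest for Suox and the highest for Cdo1 and Slc6a6, lay at the end of all 3 relations. The pair found by Spearman only was Suox with Ado in controls (n = 7). It had rho = -0.82 (exact permutation p = 0.0341, adjusted p = 0.358) and r = -0.54 (exact permutation p = 0.248). Csad and Cth had r = -0.28 in STZ livers (n = 6, exact permutation p = 0.571, adjusted p = 0.902, rho = -0.43 with p = 0.419) and 0.63 in controls (n = 7, exact permutation p = 0.149, adjusted p = 0.532, rho = 0.29 with p = 0.556). Without the 2 arrays farthest from the median of Csad these were 0.0371 and 0.51. No relation between the opposite differences of Csad and Cth was thus detectable among mice of 1 group with these numbers.

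**Figure D3:**
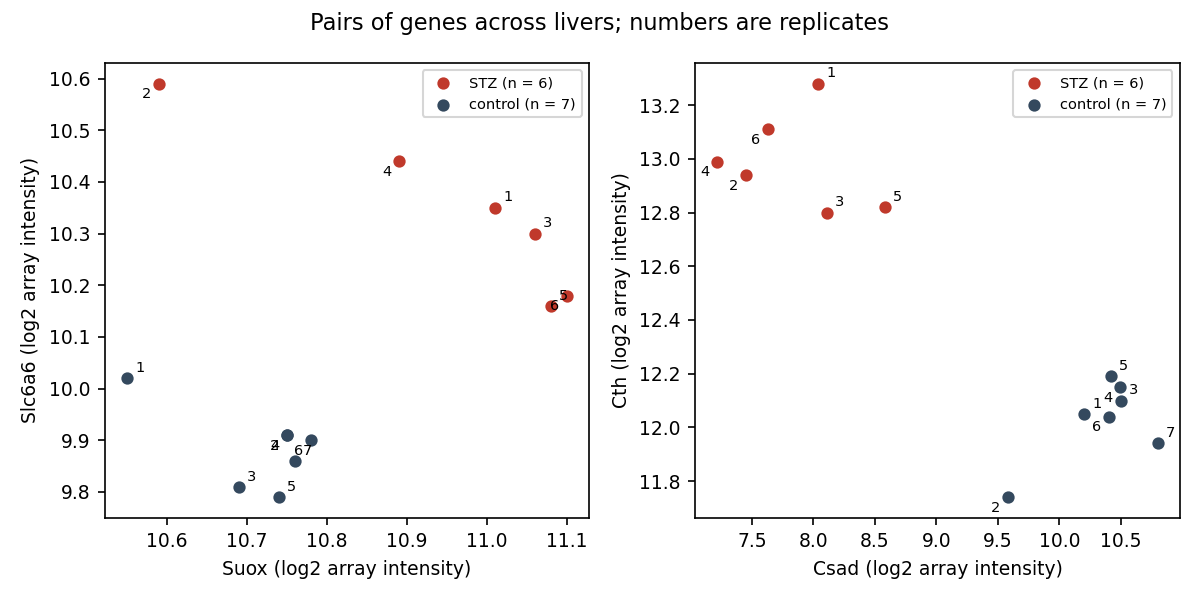
Log2 array intensities of Suox against Slc6a6 (left) and Csad against Cth (right), each point a liver marked with its replicate number, STZ (n = 6) and control (n = 7). Within the STZ livers Slc6a6 is lower where Suox is higher (r = -0.93, unadjusted), and the Csad and Cth values form 2 clouds that do not overlap on either axis.

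By likeness of values centred within each group, the genes nearest to Csad over the 13 arrays were Tyw1 (r = 0.93), Sarnp (0.89), Slc10a5 (0.89), Cnot2 (0.88) and Chd6 (0.87). None of the 5 passed in limma between STZ and control livers, with differences of -0.14 to 0.01 (adjusted p = 0.219 to 0.941). Those nearest to Cth were Ppa1 (r = 0.90), Prkar1a (0.89), Amotl1 (0.89), Iah1 (0.88) and Idh2 (0.88). Of these, Ppa1 (0.33 ± 0.07), Prkar1a (0.24 ± 0.05) and the mitochondrial isocitrate dehydrogenase Idh2 (0.64 ± 0.09) rose in STZ livers (limma adjusted p = 0.00839, 0.00818 and 0.000392). These are the highest of 19937 correlations with each gene and are given as a description.

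The neighbouring steps were read from 11 lists of 94 measured genes, of 100 listed, which do not hold the 7 members. In limma 17 of the 94 rose and 11 fell in STZ livers, which is 29.8%. The share was 9.12% among all genes. When only genes brighter than the median gene were tested, 30 of the 80 listed genes in that fit passed, against 18.6% of all genes in it. These lists, like the members, were chosen with earlier results of these data known, so nothing is read from these shares. The median difference was below 0.01 in size, beside -0.01 for all genes. In the sentences that follow, adjusted p values are those of limma over all 19938 genes.

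**Figure D4:**
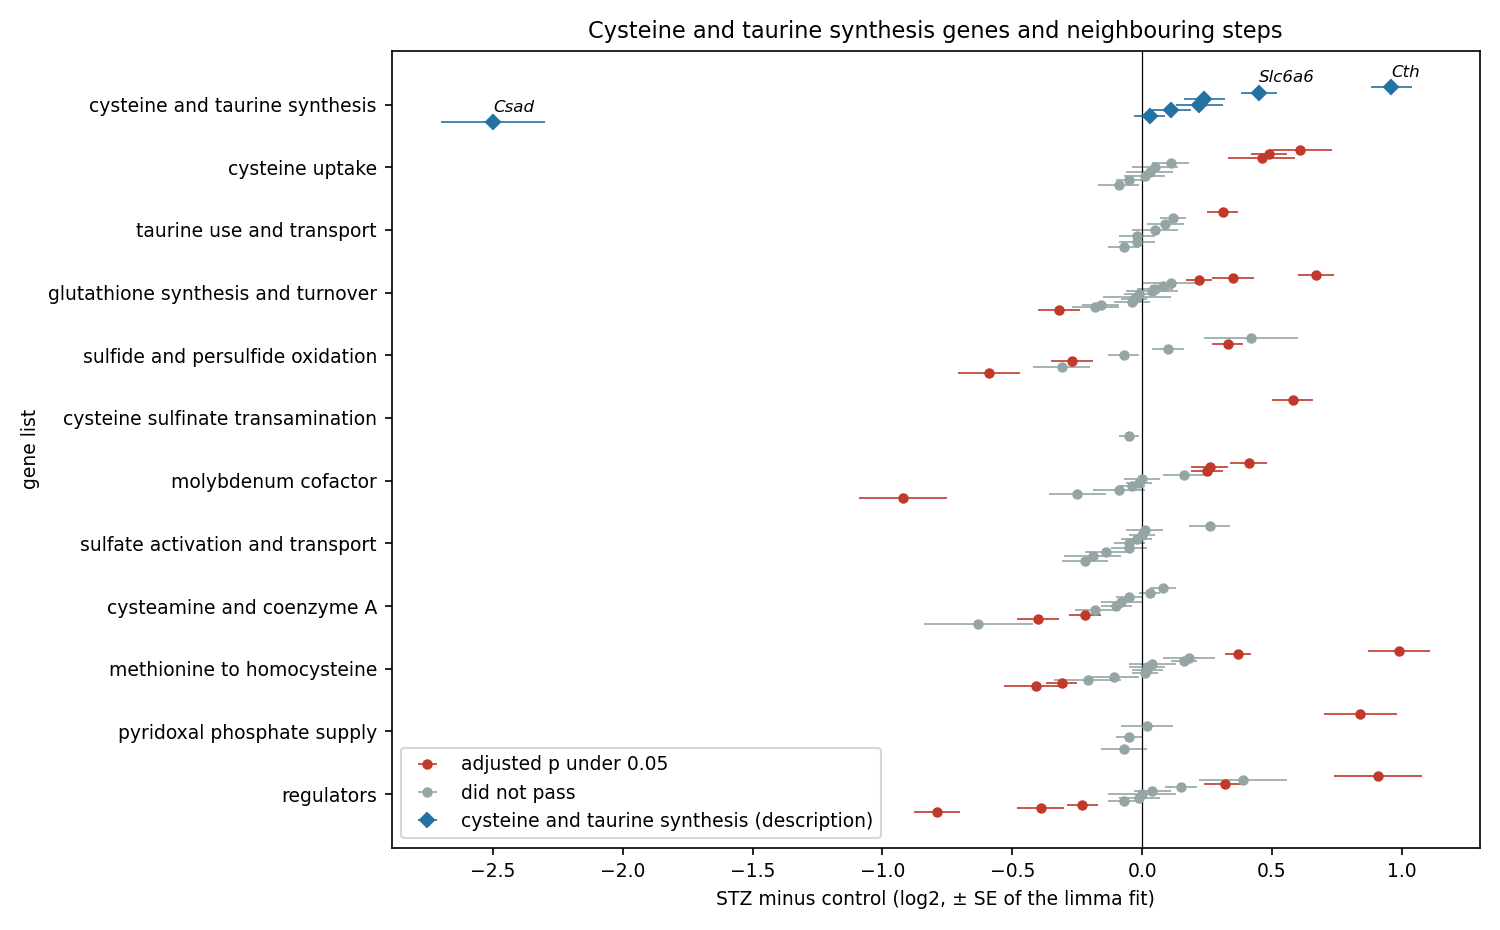
Differences between STZ and control livers (horizontal axis, log2, bars ± SE of the limma fit) of the 7 genes (blue diamonds, top row, without a test) and of the genes of 11 neighbouring lists (circles, red where the adjusted p was under 0.05). Csad at -2.50 lies farther from 0 than any gene of the lists, whose differences run from -0.92 for Aox3 to 0.99 for Nnmt.

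Upstream, in the methionine cycle that yields homocysteine, 2 of 12 genes rose and 2 fell. Mat1a, the liver enzyme that makes S-adenosylmethionine, was 13.27 to 13.46 in STZ livers, against 12.90 to 13.06 in controls, a rise of 0.37 ± 0.05 (adjusted p = 0.000107). Nnmt, which methylates nicotinamide, was 12.15 to 12.98 in STZ livers, against 11.36 to 11.86 in controls, a rise of 0.99 ± 0.12 (adjusted p = 6.41e-05). In both, all 6 STZ arrays lay above all controls. Methionine synthase Mtr, which returns homocysteine to methionine, fell (-0.31 ± 0.06, adjusted p = 0.00346), and so did Gamt, which makes creatine (-0.41 ± 0.12, adjusted p = 0.0385). Gamt lost its call in 8 of the 13 analyses that left out 1 array (STZ replicates 1, 2 and 4 and control replicates 1, 2, 5, 6 and 7).

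At the entry of cysteine, 3 of 9 uptake genes rose and none fell. The shared heavy chain Slc3a2 rose by 0.49 ± 0.07 (adjusted p = 0.000423), with all 6 STZ arrays above all controls. The heavy chain of the cystine carrier, Slc3a1, rose by 0.61 ± 0.12 (adjusted p = 0.00455) and the neutral amino acid carrier Slc1a4 by 0.46 ± 0.13 (adjusted p = 0.0302). Slc1a4 lost its call in 7 of the 13 analyses that left out 1 array (STZ replicates 1, 3, 4 and 6 and control replicates 1, 2 and 7). The light chain of the cystine-glutamate exchanger, Slc7a11, was 4.59 ± 0.21 in STZ livers and 4.58 ± 0.08 in controls (SD, n = 6 and 7), below the lower quartile of all probe sets.

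For cysteine sulfinate the other use is transamination on the way to sulfite. The cytosolic aminotransferase gene Got1 rose by 0.58 ± 0.08 (adjusted p = 0.00033), at 12.69 to 13.20 in STZ livers, against 12.14 to 12.59 in controls. The mitochondrial Got2 was -0.05 ± 0.04 (adjusted p = 0.554).

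At the taurine end, 1 of 7 measured genes rose and none fell. Fmo1, a flavin monooxygenase that can oxidise hypotaurine to taurine, rose by 0.31 ± 0.06 (adjusted p = 0.00376), and all 6 STZ arrays lay above all controls. The bile acid conjugating enzyme Baat (-0.02 ± 0.07, adjusted p = 0.907), the bile acid-CoA ligase Slc27a5 (0.12 ± 0.05, adjusted p = 0.198) and the GABA and taurine carrier Slc6a13 (0.09 ± 0.07, adjusted p = 0.514) did not pass. The decarboxylases related to Csad, Gadl1 (-0.07 ± 0.06) and Gad1 (-0.02 ± 0.07), and Slc16a6, a member of the monocarboxylate carrier family (0.05 ± 0.09), also did not pass.

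Glutathione takes a large share of liver cysteine. In that list 3 of 14 genes rose and 1 fell. Glutathione synthetase Gss, the second enzyme of synthesis, was 9.25 to 9.82 in STZ livers, against 8.84 to 8.96 in controls, a rise of 0.67 ± 0.07 (adjusted p = 3.9e-05). Glutathione reductase Gsr (0.35 ± 0.08, adjusted p = 0.0103) and Ggt6 (0.22 ± 0.05, adjusted p = 0.0141) also rose, and the aminopeptidase Anpep, which helps break glutathione down outside the cell, fell (-0.32 ± 0.08, adjusted p = 0.0132). The subunits of the enzyme that starts glutathione synthesis, Gclc (0.11 ± 0.11) and Gclm (0.08 ± 0.05), did not pass.

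Hydrogen sulfide, a side product of Cbs and Cth, is oxidised in mitochondria. In that list 1 of 7 measured genes rose and 2 fell. Sulfide quinone oxidoreductase Sqor, the first enzyme, rose by 0.33 ± 0.06 (adjusted p = 0.0029). Mpst, which handles 3-mercaptopyruvate, fell (-0.59 ± 0.12, adjusted p = 0.00371), and the thiosulfate sulfurtransferase Tst fell by a margin (-0.27 ± 0.08, adjusted p = 0.0499) that was lost in all of the 13 analyses leaving out 1 array except those without STZ replicate 3 or 5. The persulfide dioxygenase Ethe1 was 0.42 ± 0.18 (adjusted p = 0.175), and 0.59 and past the threshold without STZ replicate 2. Gstp1 was -0.31 ± 0.11 (adjusted p = 0.108), with -0.37 and past the threshold without STZ replicate 5, and -0.20 without STZ replicate 1. Tstd2 (-0.07 ± 0.06) and Tstd3 (0.10 ± 0.06) did not pass.

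Suox needs the molybdenum cofactor. Among the genes that make the cofactor or the other enzymes that hold it, 3 of 10 rose and 1 fell. The xanthine dehydrogenase gene Xdh rose by 0.41 ± 0.07 (adjusted p = 0.00203), the cofactor synthesis gene Mocs2 by 0.26 ± 0.07 (adjusted p = 0.0359) and the amidoxime reductase Mtarc2 by 0.25 ± 0.06 (adjusted p = 0.0159). The aldehyde oxidase Aox3 fell (-0.92 ± 0.17, adjusted p = 0.00195). Mocs2 lost its call in 7 of the 13 analyses that left out 1 array (STZ replicates 1, 4, 5 and 6 and control replicates 3, 6 and 7). Mtarc2 lost its call with the replicate block (0.25 ± 0.07) and when the STZ group was limited to its 4 consecutively numbered arrays (0.23 ± 0.07).

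Of the 9 genes that activate or carry sulfate, none passed in limma (2 at an unadjusted p under 0.05) or in the exact rank-sum test, and the smallest p belonged to Papss2, which makes the sulfate donor PAPS (0.26 ± 0.08, adjusted p = 0.0522). Papss2 passed without STZ replicate 2, control replicate 2 or control replicate 7. It also passed in 4 other alternatives, those with trend and robust variance, genes above the median gene, quantile normalization again and array weights, at differences of 0.26 to 0.29. Of the 9 genes of coenzyme A and cysteamine, the source of the substrate of Ado, 2 fell and none rose. They were the pantothenate kinases Pank3 (-0.40 ± 0.08, adjusted p = 0.00363) and Pank1 (-0.22 ± 0.06, adjusted p = 0.0174). The largest difference of the list was that of Vnn1 (-0.63 ± 0.21, adjusted p = 0.0853), which did not pass. In 4 of 6 STZ arrays Vnn1 lay below all controls. In the supply of pyridoxal phosphate, the cofactor of Csad, Cth and Cbs, 1 of 4 measured genes rose, the alkaline phosphatase Alpl (0.84 ± 0.14, adjusted p = 0.000792), which dephosphorylates it outside cells. Pyridoxal kinase Pdxk (0.02 ± 0.10), Pdxp (-0.07 ± 0.09) and the binding protein Plpbp (-0.05 ± 0.05) did not pass.

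Among 11 regulators of transcription linked to amino acid, bile acid or redox control, 2 rose and 3 fell. Ppargc1a, a coactivator of the fasting response, rose by 0.91 ± 0.17 (adjusted p = 0.00291), and Nfe2l2, which encodes the redox regulator NRF2, by 0.32 ± 0.08 (adjusted p = 0.013). Ppara, the fatty acid receptor, was 9.94 to 10.37 in STZ livers, against 10.67 to 11.13 in controls, and fell (-0.79 ± 0.09, adjusted p = 3.9e-05). Nr1h4, which encodes FXR, a bile acid receptor reported to lower Csad in mouse liver, was -0.39 ± 0.09 (adjusted p = 0.00722), so it fell as well. The FXR-induced repressor gene Nr0b2 (0.39 ± 0.17, adjusted p = 0.207) and Atf4, a regulator of Cth in other settings (0.04 ± 0.07, adjusted p = 0.83), did not pass. Levels of these transcripts say nothing about the activity of the proteins, and their part in the differences of Csad and Cth was not tested.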

How the data were processed

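Liver RNA of 13 mice (6 STZ, 7 control) was measured on 1 Affymetrix mouse gene array each. Per the submitters' processing notes, the authors made the deposited log2 intensities in Affymetrix Expression Console 1.2 by RMA; their build and annotation version are not stated in the sources used. RMA hides an overall change in RNA per cell and gives no detection calls. Of 35556 probe sets, 21789 had 1 symbol in the platform annotation, 1621 several and 12146 none, giving 19938 genes, each by its brightest probe set, with no filter on dim genes. The group comparison used limma 3.58.1 under R 4.3.3 (lmFit, eBayes, 2-sided, 11 residual degrees of freedom, Benjamini-Hochberg over all genes, threshold 0.05). On simulated arrays of 19938 genes it recovered 95% of 100 genes changed by 0.5 log2 units and 97% of 100 changed by 1, with 11 calls among unchanged genes. The simulated noise was normal, independent between genes and of the same SD in both groups. These shares therefore check the fit and do not give its sensitivity in the real arrays. The 7 members and all lists were chosen with earlier results of these data known. Text names every member and every measured gene of neighbouring lists of up to 8 names. In longer ones it names up to 4 passing genes with the largest difference (or the smallest p), and up to 2 genes of a marker list. A few others were singled out after their values were seen (Gclc, Gclm, Slc7a11, Nr0b2, Atf4, Hsd3b5, Vnn1 and the periportal markers Cyp2f2, Alb, Hsd17b13 and Cdh1). The 5 genes most like Csad and Cth are also named, without predicted models. Alternatives covered variance moderation, a filter, probe sets, scaling, array weights, a replicate block, 4 STZ arrays of consecutive label numbers, omission of each array and a rank-sum test. No batch is given in the labels. Label numbers of the groups do not overlap, so a batch that followed them cannot be told apart from the treatment. Titles number replicates in both groups; same-numbered arrays deviated together with correlations of -0.09 to 0.19, so no pairing was used.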

Additional observations from a re-analysis of the deposited data

Results flagged for a closer look

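In 98 groups of values (each named gene of the pathway and its neighbouring lists, in STZ and in control livers), 4 had 1 array far from the others by Dixon's test at 95%, where chance gives about 1 in 20. Suox was 10.55 in control replicate 1, against 10.69 to 10.78 in the other controls. Mocs2 was 8.72 in control replicate 2, against 9.06 to 9.23. Pdxk was 9.07 in STZ replicate 1, against 9.56 to 9.79 in the other STZ arrays. Tst was 11.67 in control replicate 6, against 11.56 to 11.59.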

How the results depend on the processing

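Over the 13 fits that left out 1 array and the 8 other alternatives that give a difference, those of Csad, Cth and Slc6a6 were -2.65 to -2.38, 0.90 to 1.00 and 0.40 to 0.54. The number of members past the threshold was 3 to 5 over the fits without 1 array (5 only without STZ replicate 2) and 3 or 4 otherwise, and nothing is read from it, because the members were chosen with the comparison known. Csad, Cth and Slc6a6 passed in every fit. Suox passed without STZ replicate 2 and with trend and robust variance, genes above the median gene, quantile normalization again and array weights. Cbs passed only without STZ replicate 2. The number of genes past the threshold was 1399 to 2168 over the fits without 1 array and 1088 in the exact rank-sum test, against 1819. For the neighbouring lists it was 24 to 29 over the fits without 1 array and 20 to 30 otherwise, against 28. With the replicate block, 1256 genes, 20 of the neighbouring lists and the same count of 3 members passed; replicate numbers share only a number here, and 1 of 6 STZ arrays correlated best with its own number. Anpep, Gsr, Ggt6, Pank1, Mtarc2, Gamt and Tst lost their calls in that fit. Mtarc2, Mocs2 and Slc1a4 lost theirs when the STZ group was limited to its 4 consecutively numbered arrays, Mocs2 and Tst with each array centred on its median, Slc1a4 and Tst with quantile normalization again, and Gamt with trend and robust variance. No difference of a member moved by more than its spread between arrays in any alternative. Array signal limits dim genes, whose differences are compressed.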

Other observations

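Genes of hepatocyte zones and of insulin action give the setting of the pathway. Of 9 measured periportal markers 5 rose and none fell in limma, with a list median of 0.31. Among all genes 5.09% rose and 4.04% fell. The 5 included the histidine ammonia-lyase gene Hal (0.51 ± 0.07, adjusted p = 0.00033) and argininosuccinate lyase Asl (0.52 ± 0.08, adjusted p = 0.000872). The other 4, Cyp2f2 (-0.08 ± 0.06), Alb (-0.03 ± 0.04), Hsd17b13 (0.17 ± 0.07) and Cdh1 (0.48 ± 0.18), did not pass. The summed linear intensity of the 9 was 54091 to 58909 in STZ arrays, against 47716 to 51679 in controls. Whether the zones themselves changed was not tested. Of 11 measured pericentral markers 3 rose and 1 fell, with sums of 40822 to 45830 in STZ arrays, against 41159 to 44148 in controls. All 5 measured index genes of insulin action passed, 3 higher and 2 lower, among them Igfbp1, which insulin represses (2.51 ± 0.34, adjusted p = 0.000204). Igfbp1 was 8.94 in STZ replicate 5, the STZ array with the highest Csad, against 9.55 to 11.22 in the other STZ arrays and 7.08 to 8.81 in controls. That array resembled the controls across genes, and a relation of Igfbp1 to Csad among mice was not tested.

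The spread between mice was wider in STZ livers for Cbs, Suox and Slc6a6, with SD ratios of STZ over control of 2.90, 2.42 and 2.12, while for Cdo1 it was 0.75 and for the other 3 members 1.18 to 1.33. These ratios are given without a test.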
